A study of Mus musculus with 6 samples.

Results

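SOX13 peaks that lay on chromatin marked by trimethylated histone H3 lysine 27 (H3K27me3) were taken from chromatin immunoprecipitation sequencing of γδ T cell precursors from mouse thymus. A peak belonged to this set if it was on chromosomes 1 to 19 of the SOX13 list of Sox13hi cells and overlapped an H3K27me3 peak of the same cells by at least 1 bp. There were 426 such peaks among 13494 autosomal SOX13 peaks and 13807 SOX13 peaks in all, so 3.16% of autosomal SOX13 peaks were chosen by the rule. The SOX13 and H3K27me3 positions of Sox13hi cells chose them, and that share is a description of the choice and not a result.

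Sox13hi and Sox13lo cells were both sorted as γδ-positive, CD24-positive thymocytes of C57BL/6 mice, and they differed in the signal of a cyan fluorescent protein (CFP) reporter at Sox13. The Sox13hi gate took CFP-high cells, and the Sox13lo gate took CFP-low or CFP-negative cells. All mice carried the same genotype, given as TCRbeta KO.Sox13 ECFP KI/+, which is loss of the TCRβ gene together with 1 reporter allele of Sox13, and their age is not given in the sources used here. Libraries came from 1000000 sorted cells for SOX13 and 250000 for each histone mark. SOX13 was mapped in Sox13hi cells, and H3K27me3 and H3K4me3 were mapped in Sox13hi and in Sox13lo cells, with 1 library and 1 peak list each. Nothing below was repeated in a second library, and no test between the populations was possible. Ranges given after a percentage are 95% exact (Clopper-Pearson) binomial intervals, which allow for the counting of peaks alone, as if each peak were independent.

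SOX13 is a transcription factor of the SOX family that binds DNA through an HMG box, and it is known for its role in the γδ T cell lineage, in particular in cells that go on to produce interleukin 17. H3K27me3 is written by Polycomb repressive complex 2 and is found at silenced genes. H3K4me3 marks active promoters. Promoters that carry H3K27me3 together with H3K4me3 are called bivalent, a state first described at developmental genes that are silent but can be turned on. A peak with both marks in sorted cells can come from both marks in the same cell or from different cells of the population, and the lists cannot tell these apart.

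The 426 peaks fell into 2 nearly equal parts. A site was defined as a run of peaks joined by overlaps through any of the 5 lists, and 208 peaks (48.8%) lay at 203 sites that held a peak of every list. The other 218 peaks lay at sites where at least 1 list had no peak. Of all autosomal SOX13 peaks, 242 (1.79%) were at sites with a peak in all 5 lists, and 34 of these did not themselves touch Sox13hi H3K27me3. Among the 208 peaks, 182 overlapped a peak of each of the 4 histone lists directly and 26 were joined to 1 or more of them through a neighbouring peak. A site called with 3 different antibodies and in both populations can also be one that is enriched without any specific antibody. The input library, made from Sox13hi and Sox13lo cells, was not analysed here, so enrichment without an antibody was not tested, and the 208 and 218 peaks are described separately.

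Of the 426 peaks, 268 (62.9%, 58.1 to 67.5%) also lay on Sox13hi H3K4me3, against 1598 of 13068 SOX13 peaks off H3K27me3 (12.2%, 11.7 to 12.8%) and 13.8% of all autosomal SOX13 peaks. Of the 218 outside the sites in all 5 lists, 152 (69.7%, 63.2 to 75.7%) lay on H3K27me3 alone and 66 (30.3%, 24.3 to 36.8%) on both marks. The split itself lowers that share, since it sets aside sites that hold H3K4me3 by definition. At sites with a peak in all 5 lists, 202 of 208 SOX13 peaks touched both marks, which the definition of the sites likewise largely fixes. In 264 of all 268 SOX13 peaks with both marks in Sox13hi, the SOX13, H3K27me3 and H3K4me3 peaks had bases in common, so the marks met within the SOX13 peak and did not only flank it on opposite sides.

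In Sox13lo cells the 152 peaks on H3K27me3 alone mostly had no histone peak. Neither mark was listed at 101 of them (66.4%, 58.3 to 73.9%). That share was below the 86.8% of all autosomal SOX13 peaks and the 88.7% of those off Sox13hi H3K27me3. H3K27me3 alone was listed at 29 (19.1%), H3K4me3 alone at 12 (7.89%) and both marks at 10 (6.58%). Over all autosomal SOX13 peaks these shares were 0.741%, 10.6% and 1.86%. At the 12 positions the Sox13hi lists held H3K27me3 without H3K4me3, and the Sox13lo lists held H3K4me3 without H3K27me3.

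The 66 peaks on both marks in Sox13hi had another pattern. In Sox13lo, 37 of them (56.1%, 43.3 to 68.3%) were on H3K4me3 alone, 14 (21.2%, 12.1 to 33.0%) on H3K27me3 alone and 15 (22.7%, 13.3 to 34.7%) on neither. None of the 66 was on both marks in Sox13lo, because such a peak would by definition be at a site with a peak in all 5 lists. Among the 1598 SOX13 peaks on H3K4me3 alone in Sox13hi, 69.4% (67.1 to 71.7%) were on H3K4me3 alone in Sox13lo too and 27.2% were on neither mark. At sites in all 5 lists, 185 of 208 peaks (88.9%, 83.9 to 92.9%) touched both marks in Sox13lo, 9 H3K27me3 alone, 12 H3K4me3 alone and 2 neither, the last 2 being joined to the Sox13lo marks through neighbouring peaks.

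**Figure D1:**
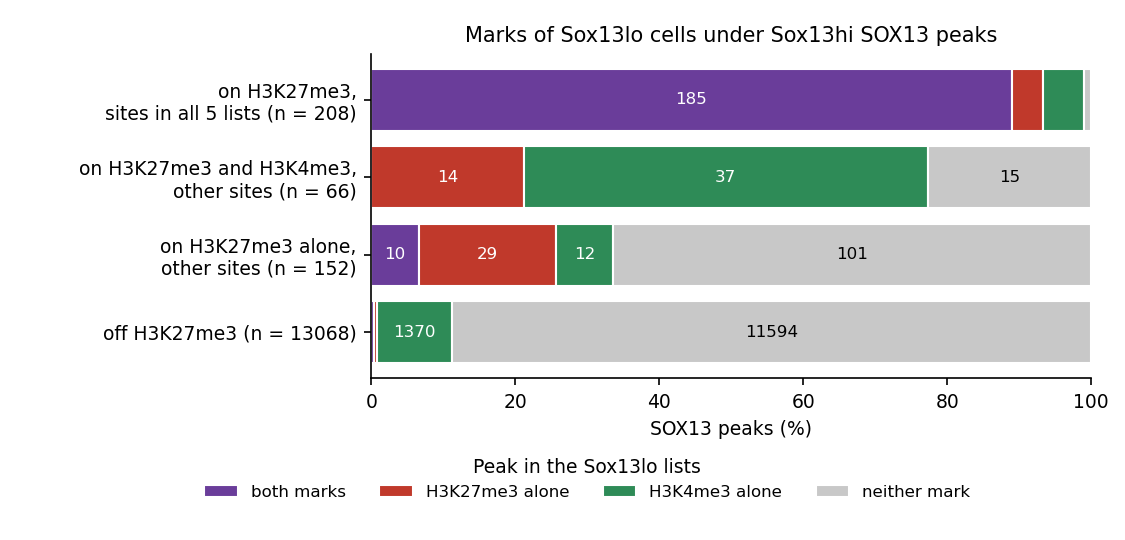
Share of SOX13 peaks (horizontal axis, percent) by the marks that the Sox13lo lists held at the same position, for 4 groups of Sox13hi SOX13 peaks defined by Sox13hi H3K27me3, H3K4me3 and by presence in all 5 lists. Numbers in the bars are peaks, and the grey part is 101 of 152 for peaks on H3K27me3 alone but 15 of 66 for peaks on both marks.

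Over the whole set, 247 of 426 peaks (58.0%, 53.1 to 62.7%) lay on Sox13lo H3K27me3 as well, against 104 of the 13068 autosomal SOX13 peaks off Sox13hi H3K27me3 (0.796%, 0.651 to 0.963%) and 2.60% of all autosomal SOX13 peaks. Most of these 247 were at sites with a peak in all 5 lists, which require it. Outside those sites, where that agreement was partly removed by the definition, 53 of 218 (24.3%, 18.8 to 30.6%) overlapped Sox13lo H3K27me3. Of all autosomal Sox13hi H3K27me3 peaks, 24.7% did so. That share counts H3K27me3 peaks and keeps the sites in all 5 lists, so it is not like for like with 24.3%. Of the 218, 165 had no Sox13lo H3K27me3 overlap. Among these 165, 24 (14.5%) had a Sox13lo H3K27me3 peak within 1 kb and 42 (25.5%, 19 to 32.8%) within 5 kb. For SOX13 peaks off both H3K27me3 lists the share within 5 kb was 3.04% (2.75 to 3.35%). Within 50 kb it was 73 of the 165 (44.2%, 36.5 to 52.2%), against 23.3% of SOX13 peaks off both lists. Most of the 165 thus had no listed Sox13lo H3K27me3 peak within 5 kb, and signal below the threshold of that list was not tested. Sox13lo H3K4me3 lay under 59 of the 218 (27.1%, 21.3 to 33.5%). It overlapped 12.5% of all autosomal SOX13 peaks and 20.9% of autosomal Sox13hi H3K27me3 peaks, both with the sites in all 5 lists kept.

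The Sox13lo H3K27me3 list had 7395 peaks and the Sox13hi list 14842, and a shorter list by itself leaves more positions unmarked. With the Sox13hi H3K27me3 list limited to its 7395 highest-scoring peaks and the H3K4me3 lists to equal length, the set had 347 peaks, of which 194 were at sites with a peak in every list. Of the other peaks, 34.0% then overlapped Sox13lo H3K27me3, against 24.3% with the full lists, and 41.8% had neither mark in Sox13lo, against 53.2%. With each list limited to its top 50% by score, 51.8% (43.9 to 59.6%) of peaks outside sites in every list overlapped Sox13lo H3K27me3 and 36.7% had neither mark. The shorter lists also left fewer sites with a peak in every list, 83 of 249 peaks. The share of other peaks with Sox13lo H3K27me3 thus passed 50% only in that last setting, which also changed which peaks counted as other. Over the whole set the share was 58.0% with the full lists, 66.9% at equal length and 65.5% with the top 50%.

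**Figure D2:**
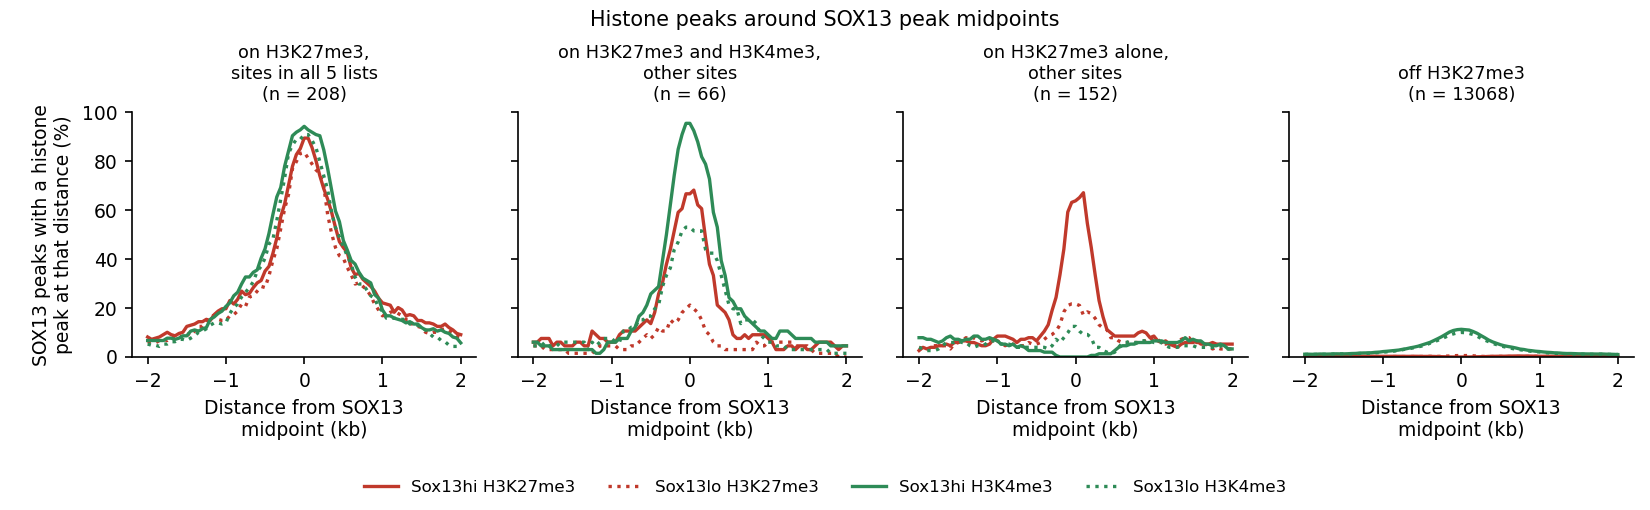
Share of SOX13 peaks (vertical axis, percent) with a histone peak at each distance from the SOX13 midpoint (horizontal axis, kb), for Sox13hi (solid) and Sox13lo (dotted) lists in 4 groups of peaks. The red solid line is raised at the centre by the choice of peaks, while the dotted red line reaches 83.7% at the midpoint in the left panel, 21.2% in the next and 21.7% in the third.

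How far H3K27me3 reached beyond the SOX13 midpoint differed between the groups. The choice of peaks fixes an overlap with Sox13hi H3K27me3. It also bears on the extent, since a wider H3K27me3 peak has more bases with which to meet other lists. Sites in all 5 lists, joined by such overlaps, thus favour wide H3K27me3 peaks by definition. At the SOX13 midpoint, a Sox13hi H3K27me3 peak was present for 89.4% of the 208 peaks at sites in all 5 lists. It was present for 66.7% of the 66 peaks with both marks and 63.8% of the 152 peaks on H3K27me3 alone, and at 1 kb to either side for a mean of 20.9%, 6.82% and 8.55%. Sox13lo H3K4me3 covered the midpoint in 12.5% of the 152 peaks, and Sox13hi H3K4me3 in none of them by the choice of that group.

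The length of overlap between SOX13 and H3K27me3 peaks differed between the parts of the set. The share of each SOX13 peak that was covered was not computed. The overlap had a median of 300 bp (quartiles 200 and 350) at sites in all 5 lists and 200 bp (100 and 250) elsewhere. SOX13 sat wholly inside the H3K27me3 peak in 120 of 208 (57.7%, 50.7 to 64.5%) and in 65 of 218 (29.8%, 23.8 to 36.4%). In 48 of the 218 (22%) the SOX13 peak was instead the wider of the pair and spanned the H3K27me3 peak, against 14 of 208 (6.73%). Midpoints lay within 50 bp of each other for 72 of 218 peaks (33.0%, 26.8 to 39.7%) and for 41 of 208 (19.7%, 14.5 to 25.8%).

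Widths separated the parts of the set mainly in the histone mark. SOX13 peaks on H3K27me3 had a median width of 300 bp, with quartiles of 250 and 400 bp, against 250 bp (250 and 300) for autosomal SOX13 peaks off H3K27me3. At least 500 bp was reached by 42 of 208 (20.2%, 15.0 to 26.3%) and 30 of 218 (13.8%, 9.48 to 19.1%), and by 5.99% (5.59 to 6.41%) of SOX13 peaks off H3K27me3. A width of 1000 bp or more was reached by 7, 1 and 18 peaks of these groups. Among SOX13 peaks on Sox13hi H3K4me3 alone, 334 of 1598 (20.9%, 18.9 to 23.0%) reached 500 bp. Within the 218, it was 17 of the 66 with both marks (25.8%, 15.8 to 38.0%). For the 152 on H3K27me3 alone it was 13 (8.55%, 4.63 to 14.2%). Large SOX13 widths were thus not particular to peaks on H3K27me3. A wider SOX13 peak has more bases with which to meet another list. The share of SOX13 peaks on H3K27me3 was 1.64% (1.04 to 2.46%) for widths up to 200 bp, 2.17% (1.80 to 2.59%) at 250 bp, 3.44% (2.84 to 4.12%) at 300 bp and 9.86% (7.53 to 12.6%) above 500 bp.

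The H3K27me3 peaks under SOX13 were broad at sites in all 5 lists and close to the width of that list elsewhere. Their median width was 750 bp (quartiles 488 and 1150) at those sites and 300 bp (200 and 450) at the others, against 300 bp (200 and 400) for the 14483 autosomal Sox13hi H3K27me3 peaks. A width of at least 1000 bp was found for 78 of 208 (37.5%, 30.9 to 44.5%) and 11 of 218 (5.05%, 2.55 to 8.85%), against 3.78% (3.48 to 4.11%) of the list. The definition of sites in all 5 lists favours wide H3K27me3 peaks, which have more bases with which to meet the other lists. H3K27me3 peaks of 66 SOX13 peaks with both marks had a median of 400 bp, and those of the 152 on H3K27me3 alone a median of 300 bp. Where Sox13lo H3K27me3 also overlapped, its peak had a median width of 700 bp at sites in all 5 lists and 550 bp at the others, and 350 bp over that list.

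The score is the authors' own value for a peak, and it was used only as a percentile within its list, the share of peaks with a lower score with ties counted at their middle. SOX13 scores in the set ran from 3 to 523, with a median of 9.13, against a median of 7.5 for SOX13 peaks off H3K27me3. The set had a median SOX13 percentile of 69.7. It was 76.9 (quartiles 56.5 and 89.6) at sites in all 5 lists and 59.9 (35.5 and 81.5) elsewhere. SOX13 peaks with both marks outside those sites had a median of 75.4 and those on H3K27me3 alone 49, the same median as the 13068 peaks off H3K27me3. SOX13 peaks on H3K4me3 alone had the highest of these medians, 80.2, and those on neither Sox13hi mark the lowest, 44.8. By median, SOX13 peaks on H3K27me3 alone were thus no higher in the SOX13 list than SOX13 peaks in general. They were above peaks on neither mark and below peaks with H3K4me3 present.

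The share of SOX13 peaks on H3K27me3 rose along the SOX13 list chiefly through sites in all 5 lists. Those sites held 5 of 1181 peaks (0.423%, 0.138 to 0.985%) in the lowest and 51 of 1357 (3.76%, 2.81 to 4.91%) in the highest score decile. Other sites held 14 (1.19%, 0.65 to 1.98%) and 29 (2.14%, 1.44 to 3.05%).

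By the H3K27me3 score the set was shifted further up. The overlapped Sox13hi H3K27me3 peak had a median percentile of 94.4 (quartiles 87.2 and 97.8) at sites in all 5 lists, where 137 of 208 (65.9%, 59.0 to 72.3%) were in the top 10% of that list. Elsewhere the median was 66.5 (44.1 and 84.5), with 82.6 for SOX13 peaks with both marks and 60.4 for those on H3K27me3 alone, and 36 of 218 (16.5%, 11.8 to 22.1%) were in the top 10%. In the Sox13lo H3K27me3 list the overlapped peaks had median percentiles of 89.2 for 194 peaks at sites in all 5 lists and 72.8 for 53 peaks elsewhere. Percentiles of the Sox13hi and Sox13lo lists are not compared, because the lists differ in length. Sites in all 5 lists favour high H3K27me3 scores by definition, because overlap with other lists rose with that score. Of Sox13hi H3K27me3 peaks without SOX13, 2.64% in the lowest score decile and 87.9% in the highest overlapped Sox13lo H3K27me3.

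**Figure D3:**
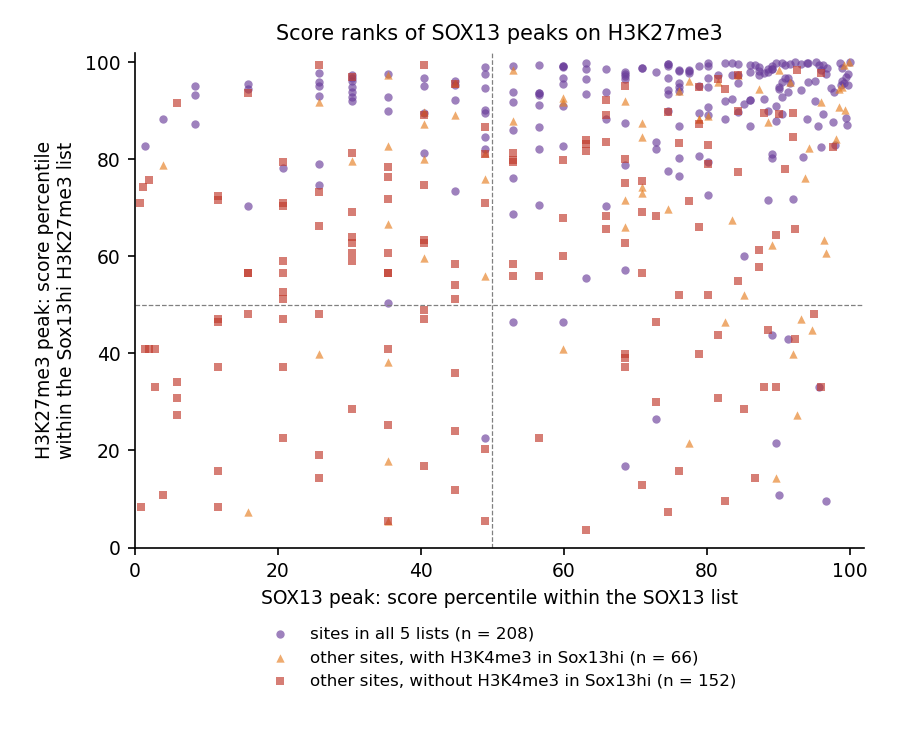
Each of the 426 SOX13 peaks on H3K27me3 by its score percentile within the SOX13 list (horizontal axis) and that of its H3K27me3 peak within the Sox13hi list (vertical axis), with dashed lines at the middle of each list. Peaks at sites in all 5 lists crowd at the top, while 38 of the 218 others and 1 of the 208 lie below the middle of both lists.

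The ranks in the lists were only loosely related. Across peaks, Spearman's rho between both percentiles was 0.20 over 208 peaks and 0.27 over 218, which describes peaks that share a position and a pair of libraries. In each group the SOX13 percentile followed the width of the SOX13 peak (rho 0.87 and 0.78), and the H3K27me3 percentile followed the width of the H3K27me3 peak (0.91 and 0.89). The widths of overlapping SOX13 and H3K27me3 peaks were not related to each other to that extent (0.13 and -0.08). Both scores were in the top 10% of their lists for 36 of 208 peaks and 11 of 218.

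Sox13hi H3K27me3 peaks with SOX13 were then set beside those without it at the same height in the list, for the Sox13lo lists and the Sox13hi H3K4me3 list, none of which entered the choice of peaks. SOX13 was on 426 of 14483 autosomal Sox13hi H3K27me3 peaks (2.94%), a number that equals the count of SOX13 peaks by coincidence, since 6 H3K27me3 peaks held 2 SOX13 peaks each and 6 SOX13 peaks met 2 H3K27me3 peaks. With SOX13, 254 of 426 (59.6%, 54.8 to 64.3%) overlapped Sox13lo H3K27me3, against 3317 of 14057 without SOX13 (23.6%, 22.9 to 24.3%) and 24.7% of the list. Most of that gap went with the score. Peaks without SOX13 weighted to the same score deciles had 52.3%, and 52.9% when width classes were added.

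Most H3K27me3 peaks with SOX13 were in the 3 highest deciles, where the gap was widest in the lowest of them. In the eighth decile 26 of 47 H3K27me3 peaks with SOX13 (55.3%, 40.1 to 69.8%) had a Sox13lo match, against 482 of 1444 without it (33.4%, 30.9 to 35.9%). In the ninth decile it was 71.8% with SOX13 (60.5 to 81.4%) and 59.6% without (57 to 62.2%). In the highest decile it was 89.2% with SOX13 (83.5 to 93.5%) and 87.9% without (86.0 to 89.7%). These intervals treat peaks of single libraries as independent and are not a test between the groups. The eighth decile was also not alone in its gap. In the third, 4 of 14 peaks with SOX13 (28.6%, 8.39 to 58.1%) had a Sox13lo match, against 6.76% without (5.54 to 8.15%). For H3K4me3 in Sox13hi, 267 of 426 H3K27me3 peaks with SOX13 (62.7%, 57.9 to 67.3%) carried it, against 20.9% (20.3 to 21.6%) without SOX13 and 22.2% of the list. Weighted to the same deciles, peaks without SOX13 had 48.4%. For H3K4me3 in Sox13lo, 258 of 426 with SOX13 (60.6%, 55.7 to 65.2%) carried it, against 19.6% (19 to 20.3%) without SOX13, 46.1% without SOX13 at the same deciles, and 20.9% of the list. The share with SOX13 was the higher in 10 of 10 deciles for H3K4me3 of either population and in 9 of 10 for the Sox13lo match, with the seventh decile at 17.9% and 18.1% as the exception.

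**Figure D4:**
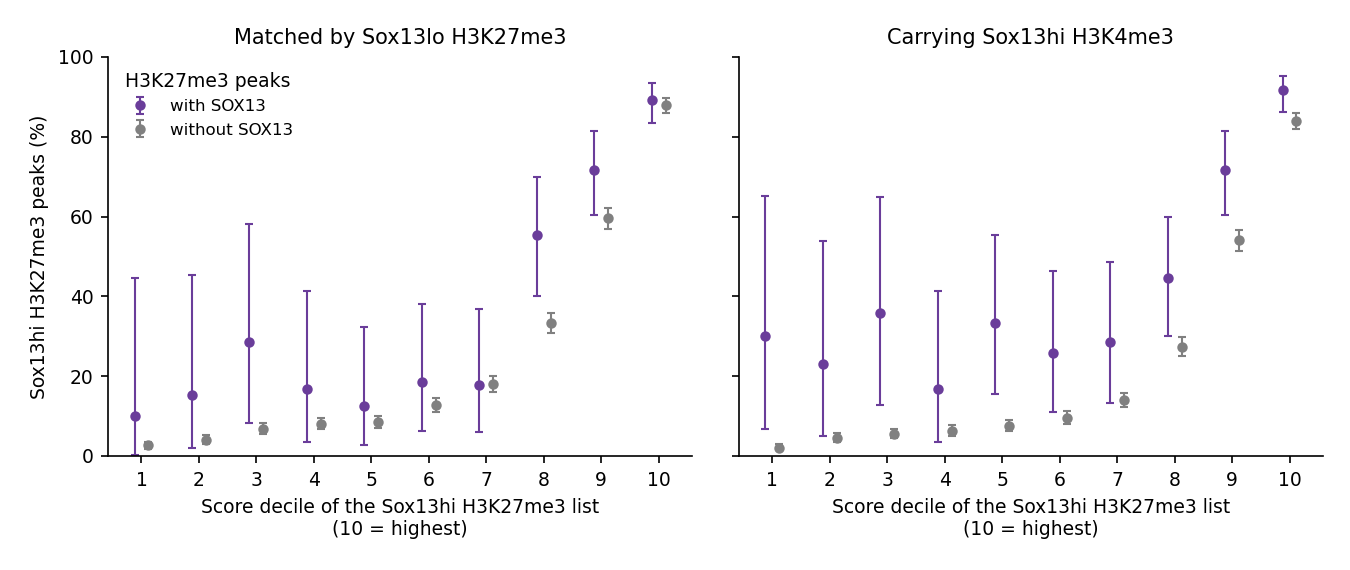
Share of Sox13hi H3K27me3 peaks (vertical axis, percent) that overlapped Sox13lo H3K27me3 (left) or Sox13hi H3K4me3 (right), with and without SOX13, by score decile of the H3K27me3 list. Bars are 95% exact binomial intervals; those for peaks with SOX13 are wide below the eighth decile, where each decile held 10 to 28 such peaks.

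Further H3K27me3 peaks lay near these positions more often than near SOX13 peaks off H3K27me3, although most of the 218 peaks outside sites in all 5 lists had none within 10 kb. These positions were chosen for lying on that Sox13hi list and the others for lying off it, so the choice itself can give this contrast. H3K27me3 peaks without SOX13 were not counted in this way, so a link with SOX13 was not tested. Within 50 kb of the SOX13 midpoint, leaving out the peaks under SOX13, another Sox13hi H3K27me3 peak was found for 174 of 208 (83.7%, 77.9 to 88.4%) and 142 of 218 (65.1%, 58.4 to 71.4%), against 41.7% (40.8 to 42.5%) of the 13068 SOX13 peaks off H3K27me3. Within 10 kb the shares were 66.8%, 45.4% and 11.4%, and within 250 kb 98.1%, 90.8% and 88.2%. The mean number of further H3K27me3 peaks within 50 kb was 3.45, 2.67 and 0.892. Further SOX13 peaks were less concentrated. Within 10 kb they were found for 24.0% (18.4 to 30.4%), 23.4% (17.9 to 29.6%) and 17.5% (16.8 to 18.2%), and SOX13 peaks on H3K4me3 alone had 23.2% (21.1 to 25.3%).

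**Figure D5:**
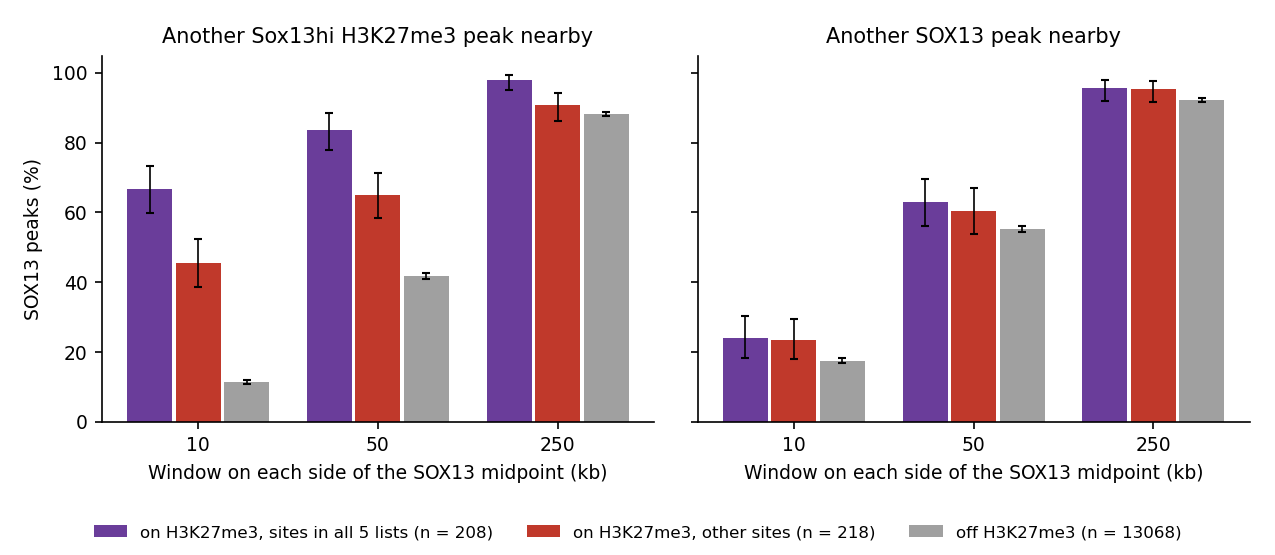
Share of SOX13 peaks (vertical axis, percent) with another Sox13hi H3K27me3 peak (left) or another SOX13 peak (right) within 10, 50 or 250 kb on each side, with 95% exact binomial intervals. For H3K27me3 the groups are furthest apart at 10 kb, with 66.8%, 45.4% and 11.4%, and close at 250 kb.

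SOX13 peaks on H3K27me3 were spread over all 19 autosomes. They made up 2.27% (1.27 to 3.71%) of SOX13 peaks on chromosome 17 at the low end and 3.97% (2.33 to 6.28%) on chromosome 18 at the high end, with overlapping intervals. Of the 426, 37 had another of the set within 10 kb, in 16 groups. No like count for other SOX13 peaks is set beside this, so whether it is few or many was not tested. Any other SOX13 peak lay within 10 kb of 101 of the 426 (23.7%), against 17.7% of all autosomal SOX13 peaks. The largest group had 6 peaks on chromosome 2, 27351151 to 27357749, all at sites in all 5 lists. Its widest peak, 27354401 to 27355849, was 1450 bp wide and had a SOX13 score of 72. It lay wholly on an H3K27me3 peak of 1550 bp in Sox13hi, which met one of 1650 bp in Sox13lo. The next group had 3 peaks on chromosome 9, 115058451 to 115061799, also at such sites.

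The highest-scoring SOX13 peak of the set lay on chromosome 6, 41071751 to 41072049, at a site in all 5 lists. It ranked 4 among 13807 SOX13 peaks (score 523), and its H3K27me3 peak, 41071601 to 41072199, ranked 1 in the Sox13hi list (score 1843). In Sox13lo the H3K27me3 peak there ranked 840.5 of 7395, with tied scores given their mean rank. The H3K4me3 peak ranked 713.5 of 20444 in Sox13hi and 10232.5 of 18471 in Sox13lo. The SOX13 peak was 300 bp wide in an H3K27me3 peak of 600 bp with the same midpoint.

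Another SOX13 peak centred on its H3K27me3 peak lay near by on chromosome 6, 40841801 to 40842099, outside the sites in all 5 lists. It ranked 14 by SOX13 (score 222), and its H3K27me3 peak, 40841651 to 40842249, ranked 3 (score 857). The nearest Sox13lo H3K27me3 peak was 138900 bp away, while H3K4me3 was present in both populations. On the far side, the SOX13 peak at 41128951 to 41129249 of chromosome 6 ranked 116 by SOX13 and 97 by H3K27me3 and had both marks in Sox13hi and H3K27me3 alone, at rank 6526.5, in Sox13lo. The stretch of 288 kb that holds these 3, chosen for description after their values were seen, had 4 SOX13 and 5 H3K27me3 peaks in Sox13hi, and 4 H3K27me3 peaks in Sox13lo, of which the best rank was 840.5. What the input library shows there was not analysed here.

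At the other sites in all 5 lists, high SOX13 scores went with broad peaks. The next by score were on chromosome 15, 12802251 to 12803299 (score 75.5, width 1050 bp), chromosome 2, 27354401 to 27355849, described above, chromosome 6, 136950851 to 136951899 (67, 1050 bp), and chromosome 5, 105356601 to 105357599 (53.8, 1000 bp). After the chromosome 6 site, the highest H3K27me3 scores were under narrower SOX13 peaks inside broad domains. SOX13 on chromosome 2, 25433251 to 25433749, was 500 bp wide in an H3K27me3 peak of 3750 bp that ranked 7, with 1750 bp of H3K27me3 in Sox13lo. SOX13 on chromosome 9, 62992301 to 62992749, was 450 bp wide in one of 3100 bp that ranked 9, with 1450 bp in Sox13lo.

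Outside those sites, the 10 highest SOX13 scores were mostly at positions with both marks in Sox13hi. After the chromosome 6 peaks they included chromosome 12, 56639251 to 56639799 (score 42.5), chromosome 10, 79824951 to 79825649 (34.3), chromosome 2, 36061301 to 36061899 (30.5), and chromosome 4, 138633351 to 138634049 (27.3). Each of these 4 was on H3K4me3 alone in Sox13lo. The nearest Sox13lo H3K27me3 peak was 60100 bp from the chromosome 12 peak, 3900 bp from the one on chromosome 10, 2950 bp on chromosome 2 and 1550 bp on chromosome 4. Chromosome 2, 25172601 to 25173249 (30.8), had both marks in Sox13hi and neither in Sox13lo. The only 1 of the 10 on H3K27me3 alone was chromosome 11, 116112751 to 116113749 (25), which was also the widest, with 1000 bp, and had neither mark in Sox13lo.

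Positions on H3K27me3 alone that kept the mark in Sox13lo included high-ranking domains. On chromosome 10, 126964501 to 126965049, SOX13 (score 15.8) lay in an H3K27me3 peak of 1400 bp that ranked 237 of 14842 in Sox13hi. The Sox13lo peak was also 1400 bp wide and ranked 250 of 7395. The lists differ in length, so ranks are not compared between them. On chromosome 4 an H3K27me3 peak of 2000 bp, 57446301 to 57448299, rank 85 in Sox13hi, held 2 SOX13 peaks of 250 bp with scores of 7 and 6.25. Of these, 57447251 to 57447499 met H3K4me3 alone in Sox13lo, with an H3K27me3 peak touching it, and 57447751 to 57447999 met H3K27me3 alone. Chromosome 17, 43766101 to 43766699 (14), had both marks in Sox13hi and H3K27me3 alone in Sox13lo. Its H3K27me3 peaks ranked 228.5 of 14842 in Sox13hi and 242 of 7395 in Sox13lo.

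Other positions on H3K27me3 alone had a different state in Sox13lo. On chromosome 8, 27284851 to 27285399 (SOX13 score 18.5), the H3K27me3 peak was 150 bp wide and ranked 7716.5, and Sox13lo had H3K4me3 of 400 bp. On chromosome 14, 9119201 to 9119449 (20), the H3K27me3 peak of 450 bp ranked 327 and the nearest in Sox13lo was 622750 bp away. On chromosome 5, 104792201 to 104792649 (14.5), H3K27me3 alone in Sox13hi stood beside both marks in Sox13lo.

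Membership turned on small overlaps at some positions. Peaks start and end on a 50 bp grid, and 28 of the 426 overlapped H3K27me3 by 50 bp only, the least the grid allows, 22 of them outside the sites in all 5 lists. On the other side of the limit, 12 SOX13 peaks touched an H3K27me3 peak with no gap and 30 more lay within 100 bp. Just inside were chromosome 11, 44426501 to 44426749 (SOX13 score 5), and chromosome 3, 117324801 to 117325049 (5.5). Just outside were chromosome 6, 139888751 to 139889349 (24.5), and chromosome 6, 52895651 to 52896049 (14.3).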

How the data were processed

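The members and the groups described here were chosen with earlier results of these data known. The authors deposited 1 peak list per ChIP library with a position and a score for each peak. Positions are on mm9, as the submitters' processing notes have it. The sources used here name no aligner, peak caller or threshold and do not define the score. Read numbers were not analysed, so depth is unknown. Starts are printed counted from 1 and ends as deposited, and widths include the last base.

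Overlap means at least 1 bp. Where a SOX13 peak met 2 H3K27me3 peaks, the one with the higher score was described. Positions were named by a rule on SOX13 and H3K27me3 scores, widths and combinations of states. The weighting by score decile was added after seeing the data. An mm9 genome or annotation was not used here, so no sequence or gene is named. The code gave back all overlaps planted in simulated lists, and its counts equalled those of bedtools 2.31.1 for 4 pairs of lists. Python 3.11.15, NumPy 2.4.6, pandas 2.3.3, SciPy 1.17.1 and matplotlib 3.10.9 were used.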

Additional observations from a re-analysis of the deposited data

Results flagged for a closer look

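Chromosomes X and Y stand outside the choice of peaks, and 85 of their 313 SOX13 peaks (27.2%, 95% exact binomial interval 22.3 to 32.4%) overlapped Sox13hi H3K27me3, against 3.16% on the autosomes. Chromosome Y held 72 of these among 164 SOX13 peaks (43.9%, 36.2 to 51.9%), of which 62 were at sites with a peak in all 5 lists, and chromosome X held 13 among 149 (8.72%, 4.73 to 14.5%), of which 9 were. The comparisons above do not use these peaks, and enrichment without a specific antibody was not tested for them.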

How the results depend on the processing

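Of 71 values recomputed under other settings, 40 stayed within the 95% interval of the reported value (within 1.5 times it for counts and the ratio) and 31 moved. Requiring 50% of the shorter peak gave 2.79% of SOX13 peaks and moved no other value. With the top 50% of peaks by score in each list there were 249 peaks (3.65% of SOX13 peaks), 83 of them (33.3%) at sites in all 5 lists; 53.0% carried Sox13hi H3K4me3 and 65.5% Sox13lo H3K27me3. Outside those sites 51.8% had Sox13lo H3K27me3 and 36.7% neither mark. The median SOX13 and H3K27me3 widths were 350 and 600 bp, the median SOX13 percentile was 60.4, and 69.5% against 28.3% of SOX13 peaks on and off H3K27me3 had a further H3K27me3 peak within 50 kb. That setting also cuts the lists that were matched. With histone lists of equal length the values were 2.57% of SOX13 peaks, 55.9% at sites in all 5 lists, 69.5% with Sox13hi H3K4me3 and 66.9% with Sox13lo H3K27me3, and outside those sites 34.0% with Sox13lo H3K27me3 and 41.8% with neither mark. The share at sites in all 5 lists was 54.9% with peaks within 1 kb merged, 54.6% on all chromosomes and 42.7% where the SOX13 peak itself had to meet all 4 histone lists. On all chromosomes 3.7% of SOX13 peaks were on H3K27me3 and 62.8% of these on Sox13lo H3K27me3. For further H3K27me3 peaks, windows of 10 and 250 kb gave 55.9% and 94.4% on H3K27me3, 11.4% and 88.2% off it, and ratios of the mean number of 8.95 and 1.75, against 3.42 at 50 kb. No paired analysis was possible because a population had a single library for each antibody, which also left no replicate to drop. Depth is unknown, so a position without a peak may hold signal under the threshold of its list.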
